A study of Mus musculus with 16 samples.

Results

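The natriuretic peptide genes Nppa, Nppb, Npr1, Npr2, Npr3, Corin and Furin were followed in ventricular myocytes of mice 9 weeks after TAC (transverse aortic constriction), an operation that tightens the aorta so that the left ventricle pumps against a higher pressure. The 7 genes were taken by symbol from the 35682 genes of the table, and every symbol matched 1 gene. The 16 animals were 8 wild-type (WT) mice and 8 littermates that carried the B3AR-Tg transgene, named for the beta-3 adrenergic receptor. All of them had undergone TAC, and no unoperated animals are among the samples, so each value compares the genotypes under pressure overload. The labels give no age, sex or strain, and name neither the promoter nor the species of the transgene. Myocytes were isolated by perfusing the heart through the aorta with a digesting solution, kept on plates for 1 hour, and lysed for RNA, so the cells were out of the heart for a time before they were measured. Ribosomal RNA was depleted and stranded total RNA libraries were sequenced.

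Natriuretic peptides are hormones of the heart that are released when its walls are stretched. Nppa encodes the precursor of atrial natriuretic peptide (ANP) and Nppb that of B-type natriuretic peptide (BNP). Nppa is abundant in the ventricle before birth, falls to a low level in the adult ventricle, and is switched on again under pressure overload. Corin, a membrane protease of myocytes, cuts the ANP precursor, and Furin, a protease of the secretory pathway, cuts the BNP precursor. Both hormones bind Npr1, a receptor that makes the second messenger cGMP. Npr2 is the related receptor for C-type natriuretic peptide, and Npr3 binds all of these peptides and removes them from the circulation.

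Nppa and Nppb lie next to each other on chromosome 4 on the same strand, with 14822 bases between their annotated starts (RefSeq, GRCm38.p6), and their promoters are shown because they are neighbours whose levels are compared below. The windows are the 250 bases before each annotated start, on the plus strand of GRCm38.p6, at chr4:148000472-148000721 for Nppa and chr4:147985650-147985899 for Nppb. Capitals mark every match, on either strand, to GATAA (the core of GATA factor motifs), TNAAGTG (NK homeobox factors), GGTGTGA (T-box factors), GGAATG (TEAD factors), TATAAA (the TATA box) and the CArG box of serum response factor. No marked matches overlapped one another.
Nppa: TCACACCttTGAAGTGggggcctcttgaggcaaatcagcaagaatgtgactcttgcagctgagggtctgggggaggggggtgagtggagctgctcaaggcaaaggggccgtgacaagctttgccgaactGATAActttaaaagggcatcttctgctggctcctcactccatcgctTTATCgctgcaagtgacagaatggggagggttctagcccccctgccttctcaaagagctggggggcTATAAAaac
Nppb: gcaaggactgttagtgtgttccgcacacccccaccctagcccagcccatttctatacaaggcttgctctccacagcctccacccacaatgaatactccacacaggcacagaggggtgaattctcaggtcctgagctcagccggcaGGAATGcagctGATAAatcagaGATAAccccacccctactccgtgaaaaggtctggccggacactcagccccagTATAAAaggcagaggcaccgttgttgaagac
Each window held 2 GATAA matches, at 121 to 117 and 75 to 71 bases before the start in Nppa (the second on the minus strand) and at 94 to 90 and 83 to 79 in Nppb. Only the Nppa window held the T-box letters, at 250 to 244 bases before the start on the minus strand, and the NK homeobox letters, at 241 to 235. Only the Nppb window held the TEAD letters, at 105 to 100. Both windows held TATAAA, at 9 to 4 bases before the start in Nppa and at 31 to 26 in Nppb. All distances are from the annotated starts, and where transcription starts in these cells was not tested. Among 32841 windows of the same length before RefSeq mouse gene starts, 22.6% held GATAA, 3.33% the T-box letters, 10.1% the NK homeobox letters, 12.6% the TEAD letters and 12.4% TATAAA. A match to the CArG box, in 1.47% of those windows, was in neither of them, and letters that only come near it were not marked. A match describes letters and is not a measured binding site.

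Libraries held between 5985335 and 14365864 counts, and the labels named no batch. Adgrb3, the tested gene with the smallest p, held 0 to 3 counts in WT and 247 to 723 in B3AR-Tg, so no library went against its label by this gene. Adgrb3 is not the gene of the beta-3 adrenergic receptor, and the source of its counts was not tested. The mouse gene of that receptor, Adrb3, held 0 to 4 counts in each library and could not serve as a check. The libraries were those of heart myocytes by their markers. These were 10 genes listed for ventricular myocytes, led by Ttn and Myh6, and their sum does not tell ventricular from atrial myocytes. The summed level was 68810 to 93680 CPM in WT animals and 75900 to 112700 CPM in B3AR-Tg animals. CPM is a count scaled to a library of common size with TMM factors. Markers of other cells were present at far lower levels. The summed level of 7 fibroblast genes was 35.9 to 105.2 CPM in WT and 10.8 to 46.5 CPM in B3AR-Tg. All 6 that were tested had lower estimates in B3AR-Tg, with a median log2 fold change of −1.21. Of these, 3 passed at an edgeR adjusted p under 0.05 (Col1a1, Col3a1 and Dcn). All 8 endothelial genes had lower estimates too (median log2 fold change −0.39), and 2 of them passed (Pecam1 and Emcn). Their summed level was 126.7 to 172.9 CPM in WT and 57.7 to 222.9 CPM in B3AR-Tg. In bulk RNA, fewer cells of a type and less RNA per cell cannot be told apart.

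All 7 genes passed the low-count filter and were tested among 10945 genes with edgeR's quasi-likelihood test. A gene was called at a Benjamini-Hochberg adjusted p under 0.05, which 4.91% of all tested genes reached, 2.03% as higher in B3AR-Tg and 2.88% as lower. Of the 7 natriuretic peptide genes, 3 were called. The hormone genes Nppa and Nppb fell and the ANP protease gene Corin rose. The 3 receptor genes and Furin did not pass. None of the 7 genes had genotypes that did not overlap at all, which 0.448% of tested genes had. The median log2 fold change was −0.71 over the 7 genes and 0.01 over all tested genes.

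Nppa (ENSMUSG00000041616) changed most. In WT its lowest, median and highest levels were 78.4, 263 and 1349 CPM, and in B3AR-Tg they were 5.76, 23.2 and 120.3 CPM. The WT replicates 2, 4 and 8 stood high, at 1240, 1076 and 1349 CPM, and the other 5 lay between 78.4 and 330 CPM. Of the B3AR-Tg animals, 7 of 8 lay below the lowest WT animal, and replicate 7, at 120.3 CPM, lay above WT replicates 3 and 6. The mean was 563 ± 556 CPM (SD, n = 8) in WT and 35.4 ± 36.5 CPM (SD, n = 8) in B3AR-Tg. The log2 fold change was −3.99 (standard error 0.68, edgeR adjusted p = 0.00362). This was the lowest log2 fold change of the 10945 tested genes. It was also the lowest in 25 of the 26 fits that used a filter on low counts, and the second lowest in the limma voom fit. Among genes with few counts, 11 had a lower one when no filter was used.

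Nppb (ENSMUSG00000029019) fell less. Its lowest, median and highest levels were 521, 629 and 1052 CPM in WT and 142.4, 285.0 and 664 CPM in B3AR-Tg. Of the B3AR-Tg animals 6 of 8 lay below every WT animal, while replicates 1 and 3, at 664 and 541 CPM, lay within the WT range. The mean was 717 ± 215 CPM (SD, n = 8) in WT and 329 ± 188 CPM (SD, n = 8) in B3AR-Tg. The log2 fold change was −1.13 (standard error 0.27, edgeR adjusted p = 0.0223). Single animals decided this call, since the adjusted p was 0.0533 without WT replicate 4 (log2 fold change −1.03) and 0.0507 without B3AR-Tg replicate 5 (−1.02). The genotypes' order for all 7 genes can be read from the plot of members by animal.

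**Figure D1:**
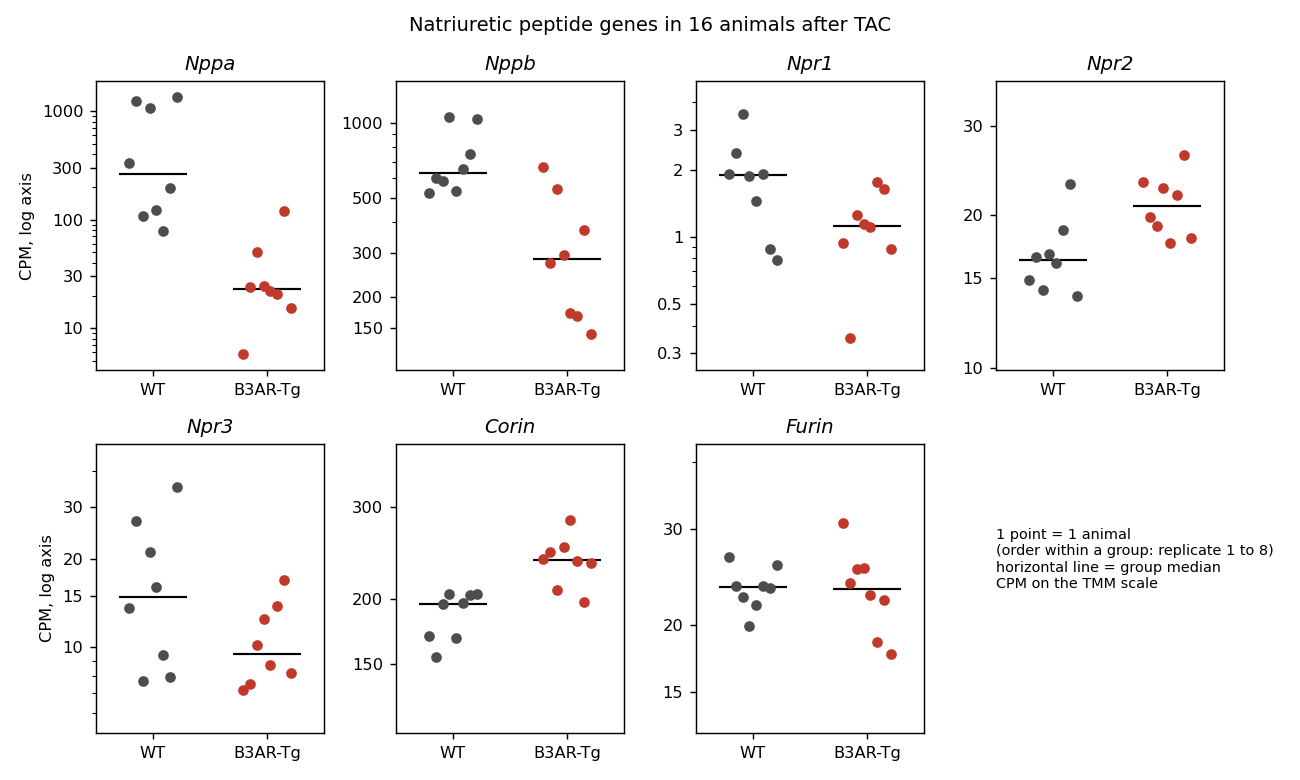
Level of each of the 7 genes in CPM (log axis, a separate range in each panel) in 8 WT and 8 B3AR-Tg animals, with 1 point per animal and a line at the group median. Nppa lies between 78.4 and 1349 CPM in WT and between 5.76 and 120.3 CPM in B3AR-Tg, while Furin lies between 19.9 and 26.6 CPM in WT and between 17.7 and 30.9 CPM in B3AR-Tg.

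Nppa and Nppb did not fall by the same amount. The log2 level of Nppa less that of Nppb was −1.09 ± 1.49 (SD, n = 8) in WT and −3.51 ± 1.47 (SD, n = 8) in B3AR-Tg. The difference between genotypes, −2.42, passed an exact two-sided permutation test over the 12870 splits of the animals (p = 0.00342, adjusted p = 0.0137 over the 4 such tests made here, smallest possible p 0.000155). Per length of transcript, Nppa made up 9.74% to 65.0% of the summed Nppa and Nppb level in WT animals, with a median of 27.7%. In B3AR-Tg animals its share was 0.777% to 22.6%, with a median of 8.28%. The summed level of both genes was at least 828 CPM per kilobase of exon in WT, with a median of 1118. In B3AR-Tg the median was 393 and the highest value 856. In WT replicates 2 and 8 Nppa exceeded Nppb per length, and in every other animal Nppb was the higher of the pair.

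B3AR-Tg replicate 1 stood apart in this ratio. It had the highest Nppb of its group, 664 CPM from 9913 counts, and the lowest Nppa of all 16 animals, 5.76 CPM from 86 counts, so that Nppb was 115.3 times Nppa in CPM. In the other B3AR-Tg animals that ratio was between 3.10 and 12.1. Its library was the largest of the series, at 14365864 counts, so neither value is limited by depth.

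**Figure D2:**
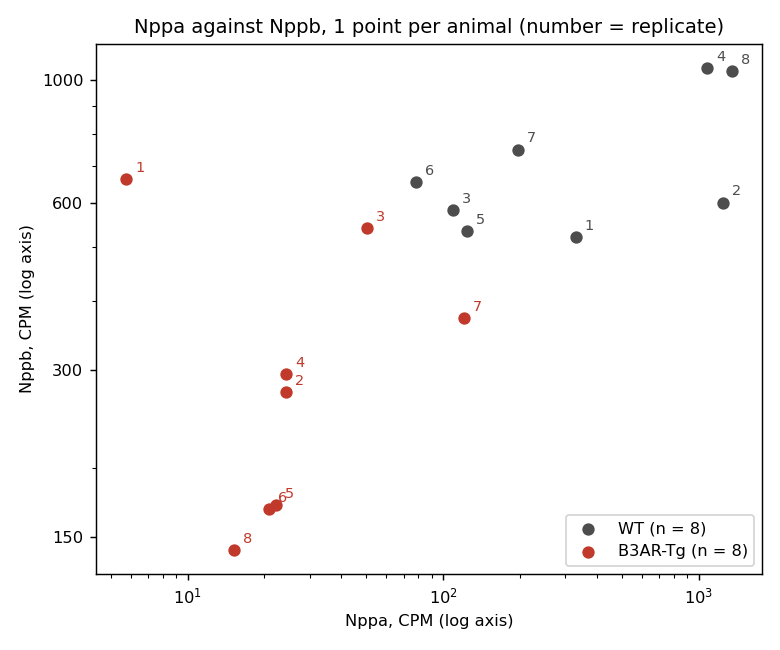
Nppa against Nppb in CPM (both axes log), 1 point per animal, numbered by replicate, for 8 WT and 8 B3AR-Tg animals. B3AR-Tg replicate 1 lies alone at the upper left, at 5.76 CPM of Nppa and 664 CPM of Nppb.

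A relation between Nppa and Nppb over the animals of a genotype was not established. In WT, Pearson's r of the log2 levels was 0.593 (exact permutation p = 0.130, n = 8) and Spearman's rho 0.381 (exact permutation p = 0.360). Leaving out replicates 2 and 8, the animals farthest from the median of Nppa, gave r = 0.670. In B3AR-Tg, r was 0.042 (exact permutation p = 0.927, n = 8) and rho 0.310 (exact permutation p = 0.462). That value rested on replicate 1, since r was 0.752 without it (exact permutation p = 0.0405) and 0.940 without replicates 1 and 7 (exact permutation p = 0.00139, n = 6). Nppa was compared in this way with each of the other 6 genes in each genotype, and none of the 12 relations passed after adjustment.

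The relation of Nppa with Npr3, the clearance receptor gene, had the smallest p in that family. In WT, r was 0.865 (exact permutation p = 0.00985, n = 8, adjusted p = 0.118 over the 12) and rho 0.833 (exact permutation p = 0.0154). Without WT replicates 2 and 8, r was 0.703 (exact permutation p = 0.106, n = 6). In B3AR-Tg, r was 0.725 (exact permutation p = 0.0366, n = 8, adjusted p = 0.220) and rho 0.643 (exact permutation p = 0.0962). Without B3AR-Tg replicates 1 and 7, r was 0.152 (exact permutation p = 0.819, n = 6), so in that genotype the relation rested on those animals.

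Of the protease genes, Corin passed the test and Furin did not. Corin (ENSMUSG00000005220) was at 154.8, 196.0 and 204.8 CPM (lowest, median and highest) in WT and at 197.4, 238 and 284 CPM in B3AR-Tg. All B3AR-Tg animals lay above the WT median and 7 of 8 above every WT animal. The exception was replicate 7, at 197.4 CPM, which was also the B3AR-Tg animal with the most Nppa. The mean rose from 187 ± 19.7 to 237 ± 26.5 CPM (SD, n = 8 each), or 0.34 as a log2 fold change (standard error 0.08, edgeR adjusted p = 0.0233). Without B3AR-Tg replicate 5, which had the most Corin, the adjusted p was 0.0514 at a log2 fold change of 0.305. The spread between animals was small, with a coefficient of variation of 10.5% in WT and 11.2% in B3AR-Tg, against 98.7% and 103% for Nppa.

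Furin (ENSMUSG00000030530) was at 19.9, 23.5 and 26.6 CPM in WT and at 17.7, 23.3 and 30.9 CPM in B3AR-Tg, so the genotypes overlapped over the whole WT range. The means were 23.4 ± 2.13 and 23.3 ± 4.18 CPM (SD, n = 8 each). Its log2 fold change was −0.003 (standard error 0.10, edgeR adjusted p = 0.995), and with library size as the only scaling its sign turned.

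None of the receptor genes passed the test. Only Npr1 had a WT mean below 12.6 CPM, the median of all tested genes. Npr1 (ENSMUSG00000027931), the cyclase receptor for ANP and BNP, held only 4 to 30 counts per library. Its levels were 0.786, 1.89 and 3.56 CPM in WT and 0.353, 1.12 and 1.76 CPM in B3AR-Tg, and all B3AR-Tg animals lay below the WT median. Its log2 fold change was −0.71 (standard error 0.32, edgeR adjusted p = 0.228).

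Npr2 (ENSMUSG00000028469), the receptor for C-type natriuretic peptide, was at 13.9, 16.3 and 23.0 CPM in WT and at 17.6, 20.8 and 26.2 CPM in B3AR-Tg. All B3AR-Tg animals lay above the WT median, and 2 of them above every WT animal. Its log2 fold change of 0.33 did not pass (standard error 0.11, edgeR adjusted p = 0.0908). It passed without WT replicate 7, the WT animal with the most Npr2 (log2 fold change 0.41, adjusted p = 0.0271). The gene of the peptide itself, Nppc, had 0 counts in all 16 libraries.

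Npr3 (ENSMUSG00000022206) was at 7.71, 14.9 and 35.3 CPM in WT and at 7.16, 9.48 and 17.0 CPM in B3AR-Tg. The 3 highest WT values belonged to replicates 8, 2 and 4, at 35.3, 26.9 and 21.1 CPM, the same animals that stood high for Nppa. Its log2 fold change was −0.72 (standard error 0.28, edgeR adjusted p = 0.155). Npr3 is also a gene of the endocardium, the inner lining of the heart. Of 5 other endocardial genes only Plvap was tested, and its level fell (−1.76 on the log2 scale, edgeR adjusted p = 0.0450). The summed level of the 5 was 1.18 to 5.80 CPM over the WT animals and 0.603 to 3.25 CPM over the B3AR-Tg animals, with Hapln1 at 0 in WT. The mean log2 level of the 23 tested non-myocyte markers, Plvap among them, had an r of −0.684 with the transgenic genotype over the 16 animals. With that mean as a covariate, the log2 fold change was −0.23 for Npr3 (edgeR adjusted p = 0.839) and −0.305 for Npr1 (adjusted p = 0.814). The log2 level of Npr3 less that of Npr1 was 3.01 ± 1.17 in WT and 3.05 ± 0.36 in B3AR-Tg (SD, n = 8 each), a difference of 0.03 (exact permutation p = 0.944).

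Between genes, levels were compared per kilobase of exon. In WT the order from the highest was Nppb (919 ± 275 CPM per kilobase, SD, n = 8), Nppa (651 ± 642), Corin (37.7 ± 3.98), Furin (5.00 ± 0.455), Npr2 (4.49 ± 0.793), Npr3 (2.38 ± 1.37) and Npr1 (0.453 ± 0.217). Nppb was above Nppa in 6 of 8 WT animals and Furin above Npr2 in 6 of 8, so these neighbours did not separate beyond their spread. Nppa was above Corin in 8 of 8. In B3AR-Tg, Nppa (40.9 ± 42.2 CPM per kilobase) came after Corin (47.7 ± 5.34), which was above it in 6 of 8 animals. The protease gene thus stood below its substrate gene in every WT animal, while in B3AR-Tg these neighbours did not separate beyond their spread.

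Atrial myocytes carry Nppa at a high level, so their markers were read beside it. The summed level of 6 atrial genes (Myl7, Myl4, Sln, Bmp10, Dkk3 and Stard10) was 25.1 to 100.2 CPM in WT and 14.8 to 69.6 CPM in B3AR-Tg. None of the 5 tested passed, but 4 had lower estimates in B3AR-Tg, and the median log2 fold change was −0.548. Dkk3 was at −1.235 (edgeR adjusted p = 0.0976), and Stard10 alone had a higher estimate, 0.26. Bmp10, the most atrial of them, was at 0 to 2.97 CPM in WT and 0 to 0.201 CPM in B3AR-Tg. The WT animals with the highest Nppa had both low and high atrial levels, since replicates 4 and 8 had the 2 lowest sums of their group, 25.1 and 29.8 CPM, and replicate 2 had 76.3 CPM. The mean log2 level of the 5 tested atrial genes was then used as a term in the model, so Bmp10 was not part of it. With this term, Nppa had a log2 fold change of −3.99 (edgeR adjusted p = 0.00352), Nppb −1.24 (0.0155) and Corin 0.31 (0.0465). Within B3AR-Tg, Nppa followed the atrial sum (r = 0.802, exact permutation p = 0.0241, n = 8, adjusted p = 0.0482 over 4 relations; rho 0.857, exact permutation p = 0.0107). That relation rested on replicates 1 and 3, without which r was 0.562 (exact permutation p = 0.210, n = 6). The marker sums set against Nppa were chosen after values were seen, and the adjustment over 4 relations does not cover that choice. Within WT, r was −0.22 and rho −0.36 (exact permutation p = 0.580 and 0.389, n = 8), and r was −0.37 without replicates 2 and 3.

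Fibroblast markers moved with Nppa across the WT animals. Whether the endothelial, endocardial, mural and leukocyte sums did so was not tested. With the summed level of the 7 fibroblast genes, r was 0.840 in WT (exact permutation p = 0.00923, n = 8, adjusted p = 0.0369 over 4) and rho 0.881 (exact permutation p = 0.00724). Without WT replicates 2 and 6, r was 0.756 (exact permutation p = 0.0972, n = 6). Like the atrial sum, the fibroblast sum was chosen after values were seen, which the adjustment does not cover. In B3AR-Tg, r was 0.154 and rho −0.02 (exact permutation p = 0.724 and 0.977, n = 8), and r was 0.209 without replicates 2 and 5. With the level of 23 tested non-myocyte markers as a term in the model, the direction of the 3 called genes was kept and none passed. Nppa was then at −3.14 (edgeR adjusted p = 0.156), Nppb at −1.06 (0.237) and Corin at 0.26 (0.324), and 17 of the 10945 genes passed. The marker level differed with genotype, so the part of other cells in these differences cannot be told apart from that of genotype by this fit.

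**Figure D3:**
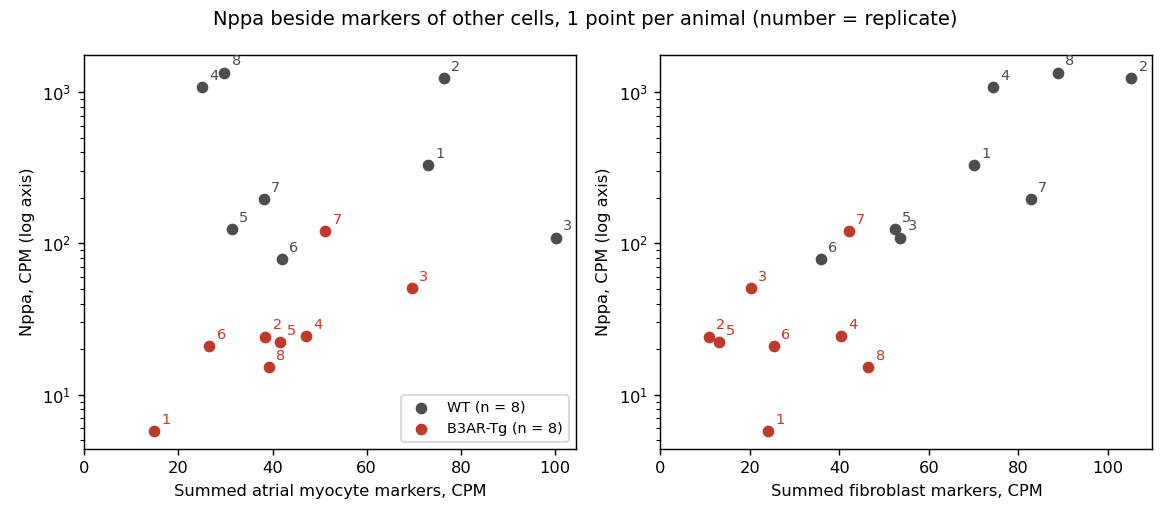
Nppa in CPM (log axis) against the summed CPM of 6 atrial (left) and 7 fibroblast markers (right), 1 point per animal, numbered by replicate, for 8 WT and 8 B3AR-Tg animals. WT replicates 4 and 8 combine high Nppa with the lowest atrial sums of their group, and the WT points rise with the fibroblast sum.

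Of 57 listed genes for other ligands, peptide breakdown, cGMP synthesis, cGMP breakdown, cGMP targets and regulators of Nppa and Nppb, 43 were tested. Of these, 3 rose and 0 fell, or 6.98% against 4.91% of all tested genes, and the median log2 fold change was 0.04. A share so near the background says nothing particular about the list.

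Pde3a, a phosphodiesterase that breaks down cAMP and is inhibited by cGMP, rose from 121 ± 17.2 CPM in WT (log2 fold change 0.57, standard error 0.13, edgeR adjusted p = 0.0169). Rgs2, an inhibitor of G protein signalling that the cGMP kinase activates, rose from 12.6 ± 4.26 CPM in WT to 23.6 in B3AR-Tg (0.92, standard error 0.22, adjusted p = 0.0211). Mef2d, a transcription factor of muscle genes, rose too (log2 fold change 0.41, adjusted p = 0.0378), and in 11 of 16 fits that left out 1 animal its adjusted p was over 0.05, up to 0.0841. Pde3a and Rgs2 passed in 16 of those 16 fits, and in 25 and 26 of all 27 alternative fits. Neither passed with the term for non-myocyte markers, and Pde3a did not pass with the replicate number as a block. The phosphodiesterase Pde1c had a mean of 188 ± 40.4 CPM in WT against 144.8 for the transgenic animals (−0.38 on the log2 scale, adjusted p = 0.0815). Mme, which encodes the peptide-degrading protease neprilysin, had means of 7.34 ± 2.87 and 11.4 CPM (0.64, adjusted p = 0.0939). Neither passed. Prkg1, the cGMP kinase, was at 29.6 ± 4.96 CPM in WT with a log2 fold change of −0.11 (adjusted p = 0.688). The soluble cyclase genes Gucy1a1 and Gucy1b1 were low, at 1.42 CPM each in WT, and did not pass. With B3AR-Tg replicate 7 left out, Hspb6, Pde1c and Vasp passed as lower, so 5 listed genes passed in place of 3.

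The transcription factor genes known to act on Nppa and Nppb ranged in WT from 0.273 CPM (Nfatc4, not tested) to 149.0 CPM (Mef2a). Besides Mef2d, none of the 23 tested regulators passed, and 16 of the 23 had a log2 fold change above 0. Gata4 was at 38.0 ± 10.7 CPM in WT (log2 fold change 0.03, standard error 0.15, edgeR adjusted p = 0.956), Nkx2-5 at 27.6 ± 5.45 CPM (0.04, adjusted p = 0.915) and Srf at 36.4 ± 4.42 CPM (−0.01, adjusted p = 0.988). Tbx5 averaged 7.18 ± 1.43 CPM in WT against 10.2 CPM with the transgene (0.49, adjusted p = 0.115).

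Genes near Nppa and Nppb on chromosome 4 were read for comparison, and 0 of the 6 tested passed (edgeR). Without adjustment, 1 of the 6 had a p under 0.05 (Plod1), against 19.3% of all tested genes. Their median log2 fold change was 0.07. Clcn6, the next gene after Nppa in RefSeq order, had a log2 fold change of 0.07 (standard error 0.23, adjusted p = 0.905). On the other side, 2510039O18Rik, next to Nppb, had 0.02 (standard error 0.13, adjusted p = 0.960). A fall of the size seen in Nppa or Nppb was not seen in these 6 genes. The 4 load markers listed with these genes, Myh7, Acta1, Ankrd1 and Xirp2, all fell, with log2 fold changes of −2.03, −1.74, −1.16 and −1.05 (adjusted p = 0.00632, 0.0245, 0.0131 and 0.0215). Of all tested genes, 2.88% were called lower. The 4 were listed with earlier results of these data known, so their fall is not an independent result. Without unoperated animals, their response to load was not tested.

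**Figure D4:**
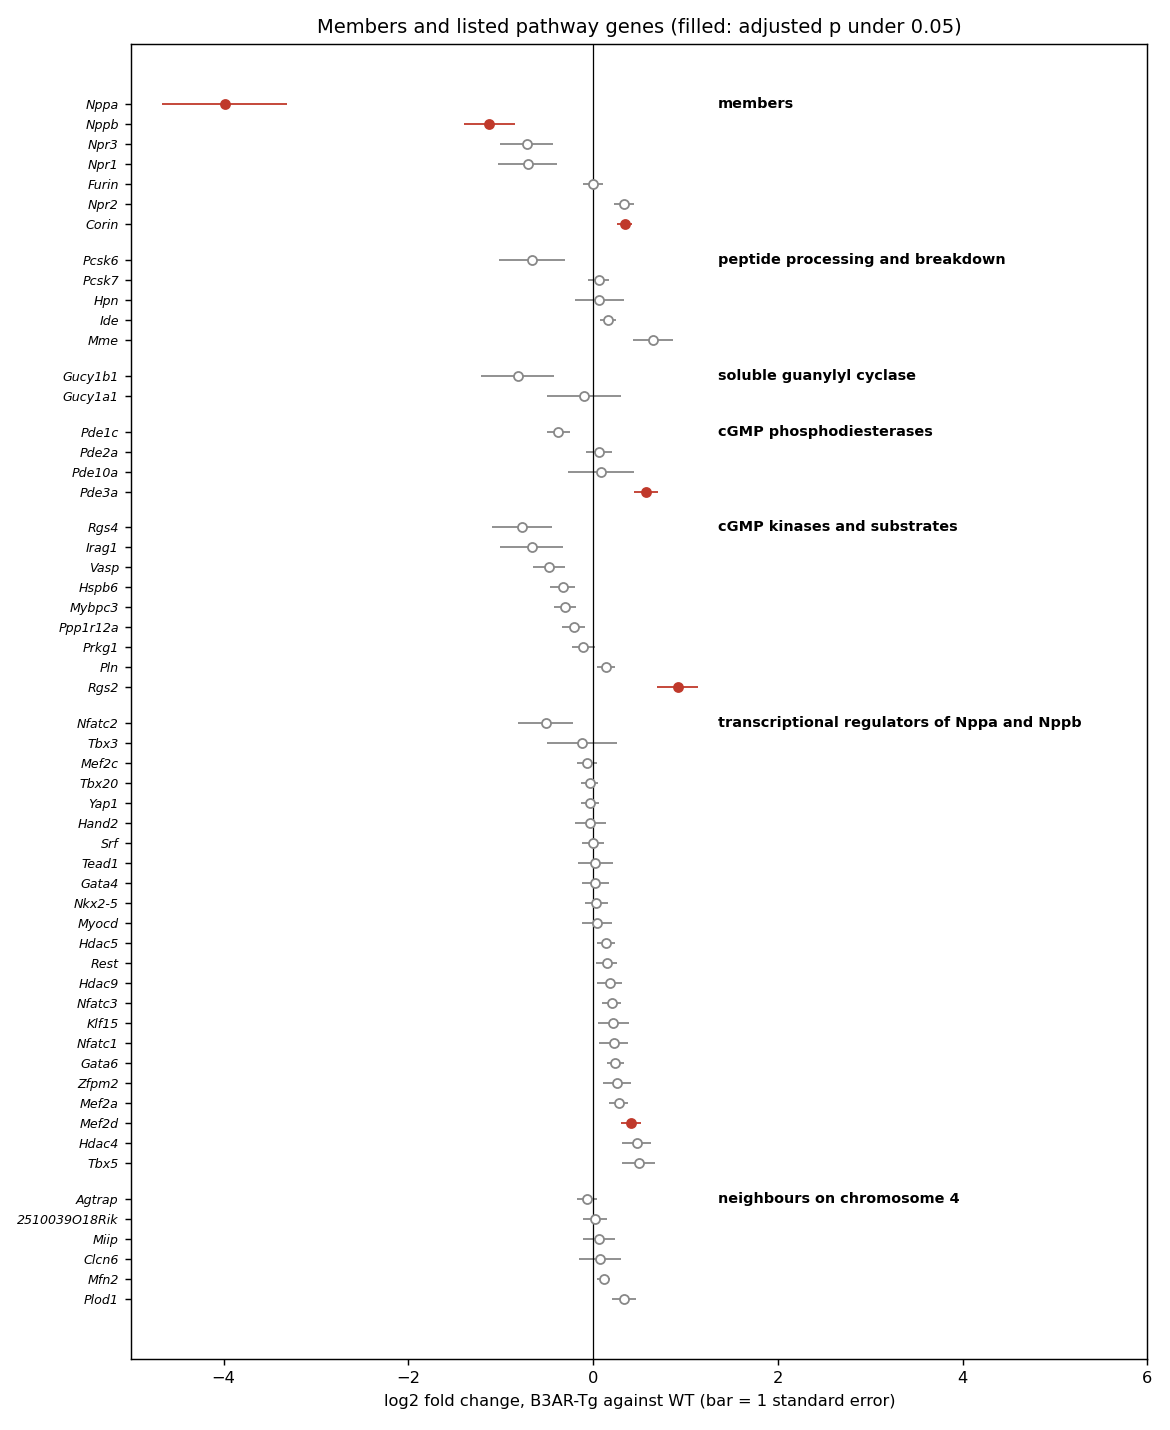
Log2 fold change (B3AR-Tg against WT, 8 animals each) with 1 standard error for the 7 members and the tested listed genes, filled where the edgeR adjusted p was under 0.05. Nppa lies at −3.99 and Nppb at −1.13, while every other gene shown lies between −0.82 and 0.92.

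The 5 genes whose pattern over animals was most like that of Nppa and the 5 most like Nppb shared no gene. Lists of 5 drawn at random from 10945 genes would rarely share one, so this says nothing particular about the pair. Likeness was Pearson's r over the 16 animals of log2 levels less the genotype mean, among 10945 genes, and is given as a description. Nppa was closest to Fxyd6, a regulator of the sodium pump (r = 0.932), Pkp2, a desmosome protein (0.915), Lrrk2, a kinase (0.898), Coq8b, of coenzyme Q synthesis (0.891), and Bloc1s6 (0.882). Of these only Fxyd6 passed the test of genotype (log2 fold change −0.97, edgeR adjusted p = 0.0296). Among the members Npr3 was at 0.817 and Nppb at 0.234. Nppb was closest to Tnfrsf12a, the receptor of the cytokine TWEAK (0.903), Uck2, a nucleoside kinase (0.869), Slmap, a membrane protein of muscle (0.865), Capza1, which caps actin filaments (0.860), and Shb, a signalling adaptor (0.857). Of these only Capza1 passed (−0.53, edgeR adjusted p = 0.00943), and Slmap had a log2 fold change of −0.49 (adjusted p = 0.0524). Furin was the member closest to Nppb, at 0.639.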

How the data were processed

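Counts per gene were deposited by the authors as whole numbers in 1 table, with 1 column per animal matched by the name in its title. Salmon and GRCm39 are named in the submitters' processing notes, and the annotation and strand setting are not given in the sources used here. Genes were tested with edgeR 4.0.16 in R 4.3.3 (quasi-likelihood test, filterByExpr with minimum count 10 and total 15, TMM scaling, genotype only), with Benjamini-Hochberg adjustment over 10945 genes and a threshold of 0.05. CPM values use the TMM scale. Log2 levels use a prior count of 2. Libraries held 5985335 to 14365864 counts, and 3 counts correspond to 0.201 to 0.487 CPM, which covers counting error only. Over 56 pairs of libraries within a genotype, chi-square per gene was 5.82 to 52.8, so every library was kept. Exon lengths come from GENCODE M21 and promoters from RefSeq (7 of 7 members matched), both on GRCm38, another build than the authors'. Single values were compared by exact permutation (numpy 2.4.6, with false discovery control from scipy 1.17.1).

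Members and lists were chosen with earlier results of these data known. Named genes were the members, listed genes past the threshold (up to 4 per list), the 5 genes most like Nppa and Nppb, and Adgrb3 and Adrb3. In addition, 1 gene was left out of the lists and is not reported here. Genes named for comparison without passing, and the relations of Nppa with marker sums, were chosen after values were seen. The test was tested on simulated data. Alternatives were 3 scalings, removal of mitochondrial genes, 2 filters, DESeq2 1.42.0, limma 3.58.1 voom, 2 marker covariates, a replicate block and each animal left out.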

Additional observations from a re-analysis of the deposited data

Results flagged for a closer look

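In each of 18 groups of 8 animals (the 7 genes and 2 ratios, by genotype), the highest and the lowest animal were compared with their nearest neighbour, and an animal was singled out where that gap took more of the group's range than Dixon's 95% critical value. This occurred in 2 groups, where chance gives about 0.9. B3AR-Tg replicate 1 was lowest for the log2 level of Nppa less that of Nppb, at −6.80, and its gap took 0.621 of the range. B3AR-Tg replicate 2 was lowest for Npr1, at −0.85 on the log2 CPM scale, with a gap of 0.531 of the range. That Npr1 value rests on 4 counts, and the same library had the lowest summed endothelial and fibroblast markers of its group, 57.7 and 10.8 CPM, whose part in it was not tested.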

How the results depend on the processing

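Over 27 alternative fits, Nppa stayed lower and past the threshold in 26, Nppb in 24, and Corin stayed higher and past it in 24. The covariate for non-myocyte markers gave Nppa −3.14 (adjusted p = 0.156), Nppb −1.06 (0.237) and Corin 0.261, with 0 of the 7 genes, 0 of the 43 pathway genes and 17 genes in all called. The replicate numbers of the titles do not pair the animals, since deviations of same-numbered animals correlated above 0.1 in 0 of 8 pairs and 0 of 16 animals were closest to their own number. With the replicate block, Corin was at 0.34 (adjusted p = 0.0967), Nppa at −3.71 (0.0319) and Nppb at −1.28 (0.0415), and 1 pathway gene and 230 genes in all were called; the exact test of Nppa less Nppb gave p = 0.0313. DESeq2 called 838 genes in all, against 537, and limma voom 5 pathway genes, against 3. Furin changed sign, to 0.077 with library size only, 0.001 without mitochondrial genes and 0.016 without a filter. Leaving out 1 animal at a time gave Nppa −4.61 to −3.67 (adjusted p at most 0.0110), Nppb −1.346 to −1.005, Corin 0.305 to 0.376, Npr2 0.281 to 0.41 and Furin −0.07 to 0.053. It gave 1 to 4 members called (1 without B3AR-Tg replicate 5), 2 to 5 pathway genes and 272 to 675 genes in all. The count was 272 without WT replicate 4, 277 without B3AR-Tg replicate 5 and 345 without B3AR-Tg replicate 8. Nppa less Nppb ranged from −2.70 to −1.95 (exact p 0.00109 to 0.00855) and Npr3 less Npr1 from −0.243 to 0.342. The mean distance of animals from their group median was not shown to differ between genotypes for Nppa (B3AR-Tg less WT −0.634 on the log2 scale, exact permutation p = 0.162) or Nppb (0.334, p = 0.0892). It ranged from −0.867 to −0.442 for Nppa and from 0.243 to 0.41 for Nppb, and passed an unadjusted 0.05 without B3AR-Tg replicate 7 (Nppa, 0.0499) or without B3AR-Tg replicate 2 or 4 (Nppb, 0.0412 and 0.0421). The correlation of Nppa with Nppb ranged from 0.432 to 0.789 in WT (0.789 without replicate 2, exact p = 0.0443) and from −0.144 to 0.752 in B3AR-Tg. Npr1 had the fewest counts of the 7 genes, 4 to 30 per library.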
